A study of Drosophila melanogaster with 3 samples.

Results

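Divergent promoter peaks are places where the CG6163-eGFP protein was found in chromatin close to the transcript starts of a pair of protein-coding genes that are read in opposite directions. They were chosen by position alone: the summit of a peak, its point of highest enrichment, had to lie within 500 bp of annotated starts of at least 2 protein-coding genes on opposite strands. Of the 10894 peaks in the conservative list of the series, 10892 lay on the main chromosome arms and 716 met this rule. A further 2813 peaks lay within 500 bp of protein-coding starts on 1 strand only, so divergent peaks made up 20.3% of the 3529 peaks at protein-coding promoters. In 691 of the 716 peaks the nearest starts on the 2 strands pointed away from each other. In the other 25 the transcripts from those starts overlapped at their heads. For those the word divergent describes the strands and not the direction of travel. Only the starts nearest the summit were used, so whole genes can overlap among the 691 too, as dup and SRPK do. The peaks covered 659 different nearest pairs and 1315 genes, and some pairs shared 1 gene, so neither peaks nor pairs are independent.

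The measurements come from chromatin immunoprecipitation followed by sequencing (ChIP-seq) on whole Drosophila melanogaster prepupae, the stage between larva and pupa, whose exact age and sex the labels do not give. All animals carried an insertion at CG6163 that adds eGFP to its protein, and the description names an antibody against GFP for the pull-down, while another label field gives CG6163 as the antibody. The single group, CG6163-eGFP prepupae, had 3 biological replicates, and no untreated or untagged group was part of the comparisons. Because whole animals were used, a peak in few cells and a weak peak in all cells cannot be told apart.

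Many neighbouring genes in the compact fly genome are read outwards from starts that lie close together. Such pairs are often housekeeping genes, active in most cells, and the stretch between their starts can carry the regulatory DNA of both. Known sequence words of fly promoters include the DRE bound by DREF, motif 1 bound by M1BP, the TATA box that positions RNA polymerase II, and GAGA repeats bound by the GAGA factor.

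The sequences of the 4 strongest divergent peaks are shown, chosen by signal. The stretches given hold 62.1% A or T at CG7601/CIA30, 66.2% at mRpS23/CenG1A, 61.9% at Tcs5/CHMP2B and 69.9% at Art3/mRpS10. In all 4 the summit lies between the nearest starts, as it does in 6 of the 10 strongest. The sequences were read from the RefSeq release of the dm6 assembly, plus strand, 5′ to 3′. The capitals mark the 11 bases centred on the summit. The stretch between the starts of CG7601 and CIA30 was chr3R:29736746-29736964, that between Tcs5 and CHMP2B was chr3L:5139396-5139618, and that between Art3 and mRpS10 was chr3R:15229409-15229664. For mRpS23 and CenG1A, whose starts lie farther apart, 151 bases around the summit are given, chr2L:13835384-13835534. All 4 stretches lie outside the annotated exons of both genes.
CG7601/CIA30: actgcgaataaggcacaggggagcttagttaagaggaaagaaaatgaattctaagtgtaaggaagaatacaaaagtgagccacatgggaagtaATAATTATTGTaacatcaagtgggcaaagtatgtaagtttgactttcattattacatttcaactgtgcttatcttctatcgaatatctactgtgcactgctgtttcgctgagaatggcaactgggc
mRpS23/CenG1A: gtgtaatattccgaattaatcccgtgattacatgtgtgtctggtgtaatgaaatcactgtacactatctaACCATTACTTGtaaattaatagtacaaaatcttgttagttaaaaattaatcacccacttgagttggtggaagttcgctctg
Tcs5/CHMP2B: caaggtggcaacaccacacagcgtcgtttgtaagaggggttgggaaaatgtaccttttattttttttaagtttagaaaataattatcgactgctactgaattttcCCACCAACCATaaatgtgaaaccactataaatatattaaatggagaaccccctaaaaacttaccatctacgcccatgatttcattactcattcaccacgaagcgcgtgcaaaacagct
Art3/mRpS10: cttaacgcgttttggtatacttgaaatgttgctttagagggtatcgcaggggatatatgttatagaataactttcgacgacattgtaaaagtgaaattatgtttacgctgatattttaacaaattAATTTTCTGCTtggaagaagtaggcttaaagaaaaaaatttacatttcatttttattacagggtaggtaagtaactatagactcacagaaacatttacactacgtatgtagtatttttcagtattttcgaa

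The word GGTCACAC, the core of promoter motif 1, was the tested word with the largest ratio of its share at divergent summits to its share at all protein-coding promoters among words found at 10 or more divergent summits. Of the divergent peaks that held it, 4 are shown as 30 bases with the word, or its reverse complement, in capitals. They were chosen by signal among the peaks with the word. Only 1 of the 21 divergent peaks with the word was in the strongest quartile group of divergent peaks. Shown are chr3L:22076054-22076083 between CG7130 and RpLP0, chr3R:28339854-28339883 at Gfat2 and Moca-cyp, chr3L:11123182-11123211 at Ufd1 and NaPi-III, and chr2L:6047968-6047997 between slmo and IPIP.
CG7130/RpLP0: gccatcgaagcGGTCACACtgggtgccgcc
Gfat2/Moca-cyp: acattggctttGTGTGACCgtattgcagcc
Ufd1/NaPi-III: cggcgggggcaGTGTGACCagaacaccatg
slmo/IPIP: tgggctagggtGGTCACACtggcgcagtaa

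The strongest divergent peak lay between CG7601 and CIA30, whose product is named for the assembly of respiratory complex I. It spanned chr3R:29736691-29736995 and its summit lay 99 bp upstream of the CG7601 start and 121 bp upstream of the CIA30 start. Its signal, the authors' value per peak, was 3009.0 in the conservative list. The overlapping peak in the ranked list of each library had a signal of 1030.4 in replicate 1, 1134.4 in replicate 2 and 884.6 in replicate 3. Signals are on the scale of their own list, so values are not compared in size between lists.

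Genes for mitochondrial ribosomal proteins stood at 3 of the 10 strongest divergent peaks. The list as a whole was not stronger: its bound genes in pairs had a median signal of 182.7, against 187.4 for all bound genes of pairs. Of its genes in pairs 34.5% were bound, against 26.3% of all genes of pairs. The peak at mRpS23 and CenG1A, an Arf GTPase-activating protein, had a signal of 2935.3 in the conservative list and of 980.6, 1171.0 and 797.0 in replicates 1 to 3, with its summit 105 bp upstream of CenG1A and 387 bp upstream of mRpS23. The peak at Art3, a protein arginine methyltransferase, and mRpS10 had a signal of 2610.3, and of 936.7, 1021.5 and 711.2 in the libraries, with its summit 131 bp and 126 bp upstream of the 2 starts. The peak at mRpL23 and CG9004 had a signal of 2397.3, and of 811.3, 896.5 and 723.9 in the libraries. Its summit lay 133 bp upstream of CG9004 but 83 bp downstream of the nearest mRpL23 start. In all 3 libraries these peaks ranked among the strongest 1% of the list.

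The other 7 had signals between 2228.0 and 3009.0. Tcs5, a subunit of the complex that makes the t6A base of tRNAs, and CHMP2B, a membrane-scission protein of ESCRT-III, shared a summit 111 bp and 113 bp upstream of their starts, with a signal of 2887.9. CG3437 and CG3552 shared a summit 130 bp and 113 bp upstream of their nearest starts, with 2460.8. The annotated span of CG3552 begins farther out and takes in all of CG3437, so this summit lies inside CG3552. The peak at Fbw5, an F-box protein, and CG9147 had 2457.4. Its summit lay 136 bp upstream of Fbw5 and 2 bp downstream of the nearest CG9147 start. The peak at tank and CG12194 had 2240.7 and lay 152 bp inside tank and 500 bp upstream of CG12194, at the limit of the rule. Chro, which encodes the chromosomal protein Chromator, and Ssl1, a TFIIH subunit, had 2228.0. All 10 overlapped a thresholded peak in every library.

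**Figure D1:**
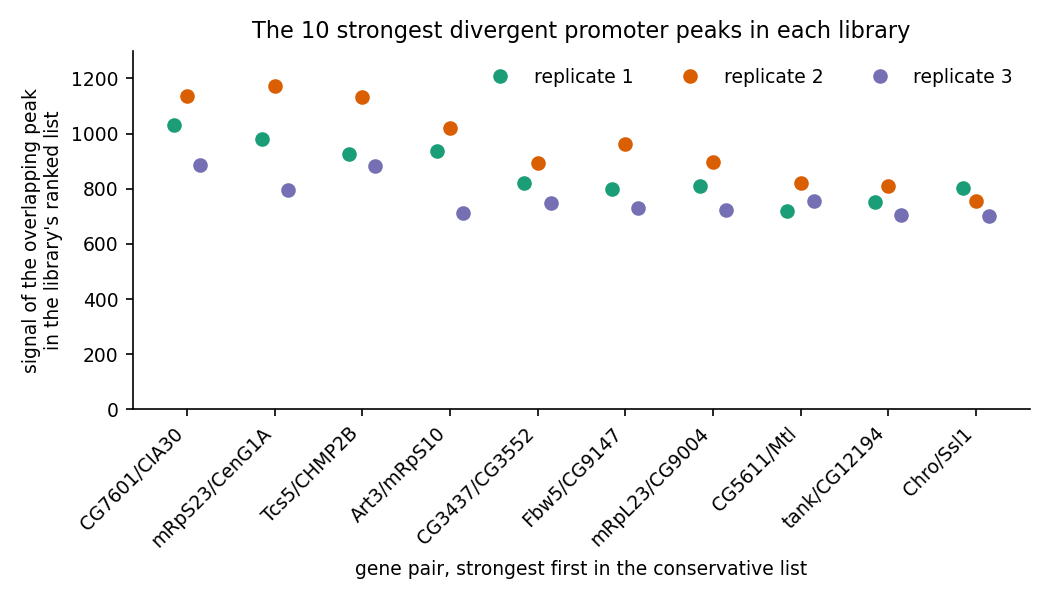
Signal (y axis, authors' units, ranked list of each library) of the peaks that overlap the 10 strongest divergent promoter peaks (x axis, gene pairs in order of signal in the conservative list), 1 point per library. All points lie between 699.9 and 1171.0, and each library is on the scale of its own list.

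Divergent peaks were stronger than one-strand promoter peaks in each of the 3 libraries. Their median signal was 74.7 against 65.1 for one-strand peaks in replicate 1, 78.2 against 68.1 in replicate 2 and 70.9 against 62.0 in replicate 3. The difference in median log2 signal, divergent minus one-strand, was 0.198, 0.199 and 0.194 in the 3 libraries, with a mean of 0.197 ± 0.00276 (SD, n = 3). An exact two-sided sign-flip permutation test over the libraries gave p = 0.25, the smallest that 3 libraries allow, so the direction held in 3 of 3 libraries but the design cannot reach 0.05. In the conservative list the median was 177.8 (quartiles 112.3 and 331.1) for divergent peaks against 142.0 (97.9 and 227.2) for one-strand peaks and 139.5 for all peaks, a log2 difference of 0.324. With a promoter window of 200 bp this difference was 0.599, with 1000 bp it was 0.0734, and in the other series lists it was 0.189 to 0.230. Of the divergent peaks 17.6% (126 of 716) were in the strongest 10% of the list, against 10.8% of one-strand peaks.

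Divergent sites were also found again in the libraries more often than one-strand sites. A conservative peak was counted as found when it shared at least 1 bp with a thresholded peak of the library. Of the divergent peaks 52.9% (379 of 716, exact binomial 95% interval 49.2 to 56.6) were found in all 3 libraries, against 40.0% of one-strand peaks (38.1 to 41.8) and 40.3% of all peaks. A further 139 were found in 2 libraries, 110 in 1 and 88 in none. The difference was largest in replicate 3, whose list held 67.6% of the divergent sites against 50.3% of the one-strand sites. Replicate 1 held 69.0% of divergent against 67.0% of one-strand sites, and replicate 2 held 76.4% against 70.3%. The conservative list was made from the same 3 libraries, so these shares are not independent of it, and the intervals cover counting error only. Within quartile groups of the whole list by signal the classes lay closer together. In the strongest group 96.2% of divergent and 94.6% of one-strand peaks were found in all 3 libraries, in the next 55.2% and 48.9%, in the next 7.64% and 8.26%, and in the weakest 12.5% and 7.69%. Because 1 bp of overlap suffices, a weak peak can count as found through the library peak of a stronger neighbour. Of the 42 divergent peaks with a signal under 50, 39 overlapped another peak of the list. The part of such overlaps in these shares was not tested.

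**Figure D2:**
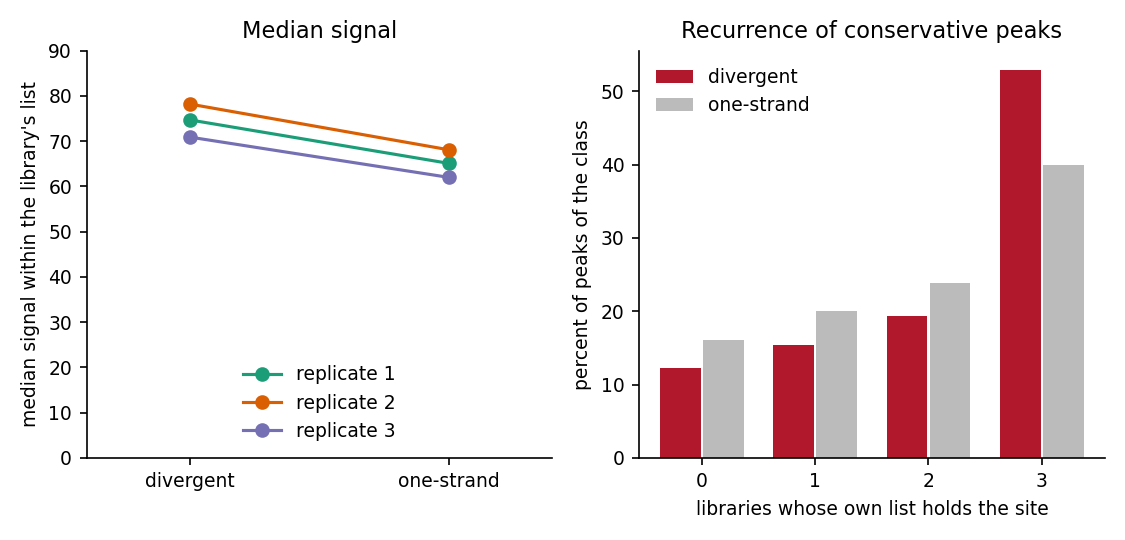
Left, median signal (authors' units) of divergent and one-strand promoter peaks in the thresholded list of each library, joined by a line per library; right, percent of conservative peaks of each class (bars, divergent left) whose site was in the lists of 0, 1, 2 or 3 libraries. All 3 lines are higher at divergent peaks, and 52.9% of divergent against 40.0% of one-strand peaks were found in all 3 libraries.

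Replicate 3 stood apart in how much of its list was divergent. Its list was the shortest, with 5844 peaks against 7449 in replicate 1 and 7920 in replicate 2, yet it held the most divergent peaks, 591 against 545 and 583. Divergent peaks made up 27.9% of its promoter peaks, against 21.4% in each of the other libraries, or 23.6% ± 3.75 (SD, n = 3) over all. Among the 5843 strongest peaks of each library the shares were 22.0% in replicate 1, 22.7% in replicate 2 and 27.9% in replicate 3, so the gap was still present at equal list length. In replicate 3, 102 divergent peaks (17.3%) overlapped no peak of the other libraries, against 10.7% of its one-strand peaks. In replicates 1 and 2 the order was the other way round, with 11.4% of divergent against 16.7% of one-strand peaks in replicate 1 and 13.6% against 18.9% in replicate 2. Across divergent sites the signal correlated between libraries with Spearman coefficients of 0.870 for replicates 1 and 2 (694 sites), 0.834 for replicates 1 and 3 (683 sites) and 0.844 for replicates 2 and 3 (679 sites), all on sites that share their libraries.

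Most summits lay between the paired starts. In 506 of the 691 peaks whose starts point apart the summit was between them, which is 73.2% (exact binomial 95% interval 69.8 to 76.5). On average 51.7% of the bases that the rule allows lie there. The interval covers counting error only and treats the peaks as independent, which they are not, so it is no test against that share. The libraries' own lists gave 75.8%, 75.2% and 80.3%, or 77.1% ± 2.80 (SD, n = 3). The nearer start was 81 bp and the farther 232 bp from the summit in the median, and the starts themselves were 290 bp apart. The nearer start was that of the minus-strand gene in 331 peaks and that of the plus-strand gene in 384. Summits outside the pair numbered 185, of which 91 lay inside the minus-strand gene and 94 inside the plus-strand gene. Their median signal was 141.7, against 190.0 for summits between the starts.

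**Figure D3:**
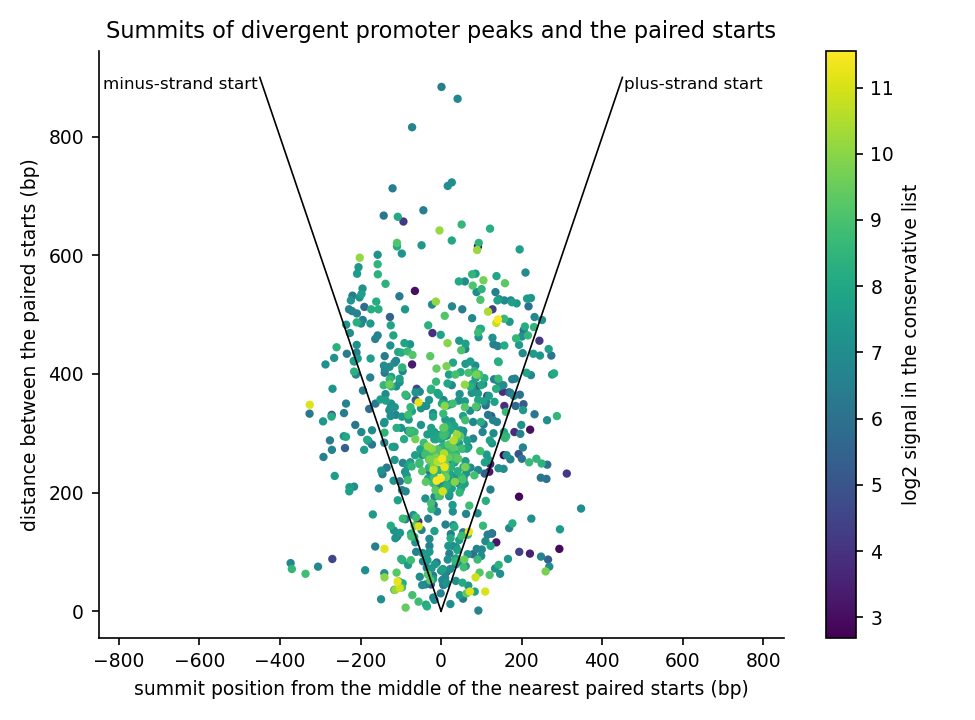
Position of the summit from the middle of the nearest paired starts (x axis, bp, minus-strand gene on the left) against the distance between the starts (y axis, bp) for the 691 divergent peaks whose starts point apart, coloured by log2 signal. The lines mark the starts: 506 summits lie between them, and many of the strongest lie near the middle of pairs 201 to 300 bp apart.

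Strong divergent peaks often had their summit 75 to 150 bp upstream of a start. This band, chosen after its values were seen, held at least 1 of the nearest starts in 44.6% of the peaks. By quartile group of the 716 peaks from weakest to strongest, the share was 25.7%, 39.1%, 49.7% and 63.7%. It was 37 of the 50 strongest and 8 of the 10 strongest. The 60 peaks with both starts in the band had a median signal of 333.8 (quartiles 170.3 and 666.5), the 259 with 1 start in it 220.1, and the 397 with none 143.4. In the libraries' own lists the peaks with both starts in the band had a median signal of 140.7, against 63.1 for those with none, in replicate 1, of 150.2 against 65.7 in replicate 2 and of 162.2 against 64.1 in replicate 3. All 3 libraries had the same order. These bands and signals come from the same peaks, so they are a description with no test. One-strand promoter peaks, measured from their single nearest start, were in the band in 12.4%, 15.5%, 14.8% and 21.9% of peaks by quartile group of their own signal, weakest to strongest. Divergent peaks measured the same way gave 18.4%, 27.4%, 40.2% and 48.0%, with the nearest start taken from 2 strands. In the strongest groups the summit lay upstream of that start in 79.8% of one-strand and 78.8% of divergent peaks. The median distance upstream was 145 bp for these one-strand and 96 bp for these divergent peaks.

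**Figure D4:**
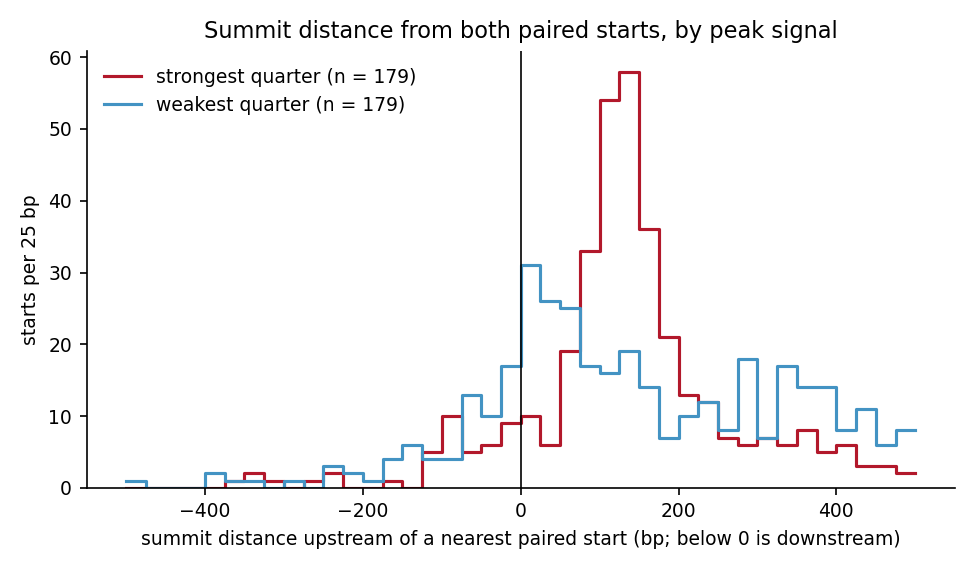
Distance of the summit upstream of the nearest start on either strand (x axis, bp, values below 0 inside the gene), counted over both starts of each peak in bins of 25 bp (y axis, number of starts), for the strongest and the weakest quartile group of the divergent peaks, 179 each. The strongest group gathers between 75 and 175 bp upstream, while the weakest is spread and highest in the 25 bp next to the start.

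How often a pair was bound varied with the distance between its starts. On the annotation alone, 2720 opposite-strand pairs of protein-coding genes had starts within 1000 bp of each other. Of these, 696 had a summit within 500 bp of a start of both genes, which is 25.6% in the conservative list and 21.0%, 21.5% and 22.9% in the 3 libraries. The share was 38.0% for pairs 201 to 300 bp apart and 34.8% at 301 to 400 bp, against 29.1% at 1 to 100 bp, 21.5% at 101 to 200 bp, 24.3% at 401 to 600 bp and 3.49% at 601 to 1000 bp. The stretch in which a summit can serve both starts shrinks as the distance grows, so the low share at wide distances is set in part by the rule. With a fixed window of 250 bp to each side of the middle of the pair, the shares were 36.5% at 201 to 300 bp and 32.7% at 301 to 400 bp, against 23.4% at 1 to 100 bp, 18.9% at 101 to 200 bp, 25.6% at 401 to 600 bp and 11.6% at 601 to 1000 bp. The bin of 201 to 300 bp also had the highest median peak signal, 213.9. In each library this bin was above the bin of 101 to 200 bp, at 30.8% against 20.1% in replicate 1, 32.1% against 18.1% in replicate 2 and 31.6% against 22.9% in replicate 3. Against the bin of 301 to 400 bp it was higher in replicate 1 (26.9% there) and replicate 2 (25.1%) but lower in replicate 3 (32.5%).

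**Figure D5:**
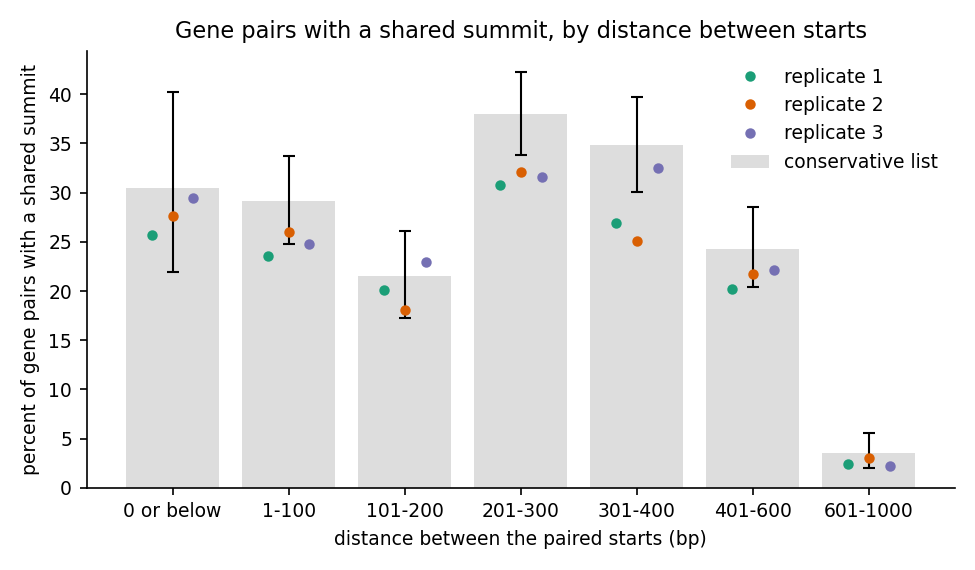
Percent of opposite-strand gene pairs with a shared summit (y axis) by the distance between their starts (x axis, bp; 0 or below means overlapping heads). Bars give the conservative list with exact binomial 95% intervals, points the 3 libraries; the bar at 201 to 300 bp is highest at 38.0% and that at 601 to 1000 bp lowest at 3.49%.

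Genes of opposite-strand pairs had a summit at 1 of their starts more often than other genes. Of the 5141 genes in pairs 34.4% had a summit within 500 bp of their own start, against 18.2% of the 8804 other protein-coding genes and 24.2% of all 13945. In the libraries the shares were 27.2% against 14.0% in replicate 1, 28.3% against 14.6% in replicate 2 and 27.9% against 11.1% in replicate 3, a difference of 14.6 ± 2.02 percentage points (SD, n = 3). The exact sign-flip permutation test gave p = 0.25, the smallest possible with 3 libraries. Pairs counted whole, by a summit shared by both genes, exceeded other genes by 8.56 ± 2.85 percentage points (SD, n = 3), with the same exact permutation p = 0.25; in the conservative list the excess was 7.37 points, and 3.24 with a promoter window of 200 bp. A summit can lie near both genes of a pair at once: 1767 genes of pairs had a summit at a start of their own and 1352 had one shared with the partner. Genes of pairs had 1.47 annotated starts each against 1.37 for other genes. The part of either in the difference was not tested.

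Genes of cytoplasmic ribosomal proteins were among those bound most often at their pairs, and none of the 14 cuticle genes in pairs was bound there. Over all genes of pairs, 1352 of 5141 (26.3%) had a summit shared with their partner. Of the cytoplasmic ribosomal protein genes 30 of 56 in pairs had one (53.6%), with a median signal of 315.4 against 187.4 for all bound genes of pairs. With any start counted, in pairs or not, 63 of the 93 genes of this list had a summit, against 3371 of 13945 protein-coding genes. Summits at these genes were therefore not limited to shared ones. RpL7 shared a peak with Ripalpha at 675.6, found at 188.9, 226.8 and 262.9 in replicates 1 to 3, and RpS27 shared one with Nup37, a nuclear pore protein, at 659.9, found at 177.7, 188.0 and 250.7. By signal within each library's thresholded list, the RpL7 site had percentile ranks of 90.6, 92.6 and 95.9 in replicates 1 to 3. The RpS27 site had 89.3, 89.6 and 95.5, so both ranked highest in replicate 3. RpL10Ab had no summit in the conservative list but was bound in 2 of the libraries' own lists. The mitochondrial ribosomal protein genes were bound at 20 of 58 (34.5%), near the background, although 3 of them had peaks among the 10 strongest.

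Genes of vesicle traffic and autophagy were bound at 14 of 32 (43.8%) and 8 of 16 (50%) of their members in pairs. The background for this and the next lists was the 26.3% of all genes of pairs. With any start counted, in pairs or not, 15 of 46 vesicle genes and 12 of 20 autophagy genes had a summit. Vps33B, which acts in membrane fusion at lysosomes, shared a peak with the protease gene Fur1 at 580.4, and Vps50 shared one with PIG-A at 434.6. Atg2, a lipid transfer protein of autophagosome growth, had 460.0. Atg1, the kinase that starts autophagy, had no summit in the conservative list and none shared with its partner Sap130 in the libraries. The starts of Atg1 and Sap130 lie 786 bp apart, and only 3.49% of pairs 601 to 1000 bp apart had a shared summit. Genes of RNA polymerase II, its general factors and Mediator were bound at 16 of 42 (38.1%), with MED30 at 460.8 and Polr2H at 435.0. Aminoacyl-tRNA synthetases, which load amino acids on tRNAs, were bound at 8 of 22 (36.4%), with IleRS at 430.6. Genes of oxidative phosphorylation were bound at 15 of 47 (31.9%), near the background. Cyt-c-d, a cytochrome c gene, had 1122.0 with heads that overlap those of CG31808. ND-ASHI, a subunit of complex I, shared a peak with Fum1, a fumarase, at 1117.1. The summit of that peak lay within the annotated span of Fum1, upstream of an inner start of the gene.

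Other lists were at or below the background. Nuclear pore genes were bound at 4 of 16 (25%), DNA replication genes at 3 of 15 (20%), mitochondrial import genes at 1 of 5 (20%), translation initiation factors at 4 of 21 (19.0%), splicing genes at 3 of 19 (15.8%), proteasome genes at 4 of 26 (15.4%) and cuticle genes at 0 of 14. PolD2, a subunit of DNA polymerase delta, nevertheless had 1771.2, and the proteasome gene Rpn3 had 433.2. With any start counted, in pairs or not, 5 of the 140 cuticle genes had a summit, against 3371 of 13945 protein-coding genes. Over all lists 7 of 14 had a larger bound share than the 26.3% of all genes in pairs. The lists are small and were compared by counts alone, so nothing is called particular to any of them.

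In only 1 peak did both nearest genes belong to the same list. It lay between Taf10b and Taf10, which encode related subunits of the TFIID and SAGA complexes, with starts 45 bp apart. Its signal was 87.3 in the conservative list and 28.0, 40.4 and 24.1 in the ranked lists of the replicates, and none of the libraries' thresholded lists held it.

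Bound pairs spanned nearly the whole range of distances. The narrowest was Atg6, a regulator of autophagy, and Pisd, a phosphatidylserine decarboxylase, with starts 1 bp apart, a signal of 106.7 and no thresholded peak in any library. The widest was CG15019 and TP53INP, 884 bp apart, with a signal of 88.5. A pair had 1 summit in 633 cases and 2 in 63, among them dup, the fly Cdt1 of replication licensing, and SRPK, a kinase of splicing factors, where the summits had signals of 163.9 and 143.2 and lay 659 bp apart. At the 500 bp limit the peaks just inside were those of tank and CG12194 (2240.7) and of CG14968 and ZnT63C (1108.2), each 500 bp from its farther start. Those just outside, 501 bp from it, were at dgt3 and Prosalpha3 (171.0) and at Syx16 and HERC2 (129.4).

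Weak entries of the list were often neighbours of stronger peaks. Of the 42 divergent peaks with a signal under 50, 39 overlapped another peak of the list, against 98 of all 716. The weakest, between RnrS, the small subunit of ribonucleotide reductase, and CG34231, had a signal of 6.46, a percentile rank of 1.09 in the conservative list. The library peaks that overlapped it had signals of 67.5, 111.9 and 89.6. Their percentile ranks in the libraries' own thresholded lists were 51.2, 75.2 and 69.6. Another summit of the conservative list lay 201 bp away. The strongest divergent peaks that no library's list held were those of Enoph and Hph (155.5), HBS1 and CG12025 (141.4) and CG15891 and CG3815 (132.0). By quartile group of the members from weakest to strongest, 10.1%, 22.9%, 81.0% and 97.8% were found in all 3 libraries.

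Pairs were bound on all main arms except chromosome 4. The share was 29.5% on 3L, 27.3% on 2L, 25.5% on 3R, 23.6% on 2R and 22.0% on X, with median peak signals of 201.9, 185.7, 178.7, 172.6 and 147.1 on these arms. On chromosome 4, 0 of 11 pairs had a shared summit.

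DNA at divergent summits was rich in A and T. The 101 bases around the summit were 63.9% A or T on average, against 54.7% in equal windows centred 300 bp away, while one-strand promoter summits had 56.9% against 58.3%. Summits away from protein-coding starts had 62.2% and all summits of the list 60.9%. Among divergent peaks it was higher in stronger groups: from the weakest to the strongest quartile group it was 59.8%, 61.5%, 64.9% and 69.2%. Peaks with both starts in the band of 75 to 150 bp had 73.6%. The middles of pairs without a shared summit had 66.1% and those of pairs with one 68.0%, so the stretch between starts was rich in A and T with or without a peak.

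Words of fly promoters were counted on both strands within 50 bp of the summit, and all-promoter shares were taken from equal windows centred 100 bp upstream of the 13945 genes. The DRE, TATCGATA, was in 4.33% of divergent against 1.21% of one-strand windows, 0.679% of windows at all peaks and 2.62% of all promoters. It was more frequent, at 5.28%, in equal windows at the middles of the 1951 pairs with starts apart and no shared summit. The motif 1 core, GGTCACAC, was in 2.93% (21 of 716) against 0.782% of one-strand windows, 1.39% of all promoters and 2.87% of the middles of pairs without a shared summit. Both were rarer at strong divergent peaks: the strongest quartile group held the DRE in 2 of 179 windows and GGTCACAC in 1, and the weakest group in 14 and 10. The strongest peak with GGTCACAC, at CG7130 and RpLP0, had a signal of 398.1.

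TATAAA and AAAATA, words made of A and T, went the other way. TATAAA was in 20.7% of divergent windows, 29.6% in the strongest and 17.9% in the weakest quartile group, against 11.8% of one-strand windows, 18.2% of all promoters and 22.6% of the middles of pairs without a shared summit. AAAATA was in 36.6%, with 45.8% in the strongest and 33.5% in the weakest group, against 24.7% of one-strand windows, 29.0% of windows at all peaks, 31.1% of all promoters and 37.5% of the middles of pairs without a shared summit. The share of A and T moves with both words, and its part was not tested. GAGAGAG was in 5 divergent windows (0.698%) against 6.86% of one-strand windows, 3.38% of all promoters and 1.44% of the middles of pairs without a shared summit. CGATA, the BEAF-32 core, which is also part of the DRE, was in 20.3% of divergent windows, against 13.5% of one-strand windows, 20.4% of all promoters and 487 of the 1951 middles of pairs without a shared summit.

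Divergent windows held 9 of the 14 words more often than one-strand windows. CAGCNCT, part of motif 7, was in 8.52% against 5.65%, and in 4.66% of all promoters. GTATTTTT, part of motif 6, was in 2.79% against 1.85%, and in 2.75% of all promoters. TTATGCAA was in 0.559% (4 windows) against 0.427%, as was CAGGTAG, the word of Zelda. Both were more frequent over all promoters, at 0.896% for TTATGCAA and 0.645% for CAGGTAG. Less frequent at divergent than at one-strand windows were CAGCTG, the E-box of motif 5 (5.59% against 6.15%), and TCATTCG, an initiator-like word (0.838% against 1.42%). So were AGGTGGCG, the CTCF core (0.279% against 0.320%), and TTTTTTTT (6.84% against 10.1%). All promoters held these words, in the same order, in 5.02%, 1.03%, 0.208% and 6.25% of windows. A match shows only that these letters are present in the window.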

How the data were processed

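ChIP-seq peak lists of 3 libraries of 1 group were used. Sonication aimed at 200 to 800 bp, per the labels. On dm6, the lists of single libraries came from 1 alignment each and the series lists from all 3, per the deposited notes. Aligner and caller names were not given in the sources used here. Deposited signal, a value per peak made by the authors, is comparable only within a list. The deposited score, which rises as the irreproducible discovery rate (IDR) falls, began at 830 in the conservative list. The −log10 q-value and −log10 IDR deposited by the authors served only as filters. Neither read numbers nor the control experiment of the labels entered; both were not used here. Depth is therefore expressed in peaks per library, 7071 ± 1088 (SD, n = 3).

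Summits were set against starts of 30748 protein-coding transcripts in Ensembl release 115. The notes do not say which replicates were compared for the conservative list. Members, gene lists, words and the 75 to 150 bp band were chosen with earlier results of these data known. Genes were named by rule: the 10 strongest peaks found in all 3 libraries, bound and unbound list members, peaks at the extremes of distance and at the limit, peaks in no library, and the weakest recurrent one. Library differences were tested by exact two-sided sign-flip permutation. The labels call the samples biological replicates. Functions were tested on simulated peaks with known classes. The alternatives changed the window, list, IDR or q-value limit, starts, overlap rule, replicates and merging. Figures were drawn with matplotlib 3.10.9, and the computation ran in Python 3.11.15 with SciPy 1.17.1, pandas 2.3.3 and NumPy 2.4.6.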

Additional observations from a re-analysis of the deposited data

How the results depend on the processing

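Of 107 recomputed values of the main results, 38 moved beyond the limit set for them. A change of direction could be scored only for the signal difference and the pair share, and neither reversed under any of its 13 alternatives. Ratios of single words, given at the end of this section, were not among the 107. For the signal difference and the pair share only the direction was judged, and for counts a change of up to 1.5 times was allowed, so the other 69 are not all within the spread between libraries. Signal was higher at divergent peaks under all 13 alternatives tried (0.0734 to 0.599 on the log2 scale), and pairs were bound more often than other genes under all 13. No paired analysis was possible because there is only 1 group.

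With a promoter window of 200 bp there were 311 divergent peaks, 12.3% of promoter peaks, 59.5% found in all 3 libraries, and a median of 33 bp from summit to middle. With 1000 bp there were 1168, 25.7%, 46.3%, 62.8% of summits between the starts and 160.5 bp. Peaks found in all 3 libraries gave 379 peaks, 25.2%, 79.2% between and 72.5 bp. The 5'-most starts alone gave 25.5%, 67.2% between and 95.5 bp. An IDR of at most 0.001 gave 77.5% between and 75.8 bp, and a q-value of at most 0.05 gave 64.1% found in all 3 libraries and 72.5 bp. The series lists of 12445, 9110 and 8933 peaks gave 46.3% found in all 3 libraries, 56.7% with 77 bp, and 78.8 bp. With 1 peak per merged region the distance was 79 bp. Values without replicate 1, 2 or 3 used only peaks found in both remaining libraries, so the lower counts come with that filter, as they do for peaks found in all 3. Without replicate 1, 2 or 3 the number of divergent peaks was 403 to 440, their share of promoter peaks 21.8 to 25.5%, the share of pairs with a summit 14.9 to 16.1% (14.0% for peaks found in all 3 libraries, 25.6% with all peaks), the share found in the remaining libraries 56.3 to 61.5%, the share between the starts 77.3 to 78.7% and the distance 72.5 to 73 bp. The causes of these moves were not tested, beyond fewer or more peaks meeting the rule.

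With words counted within 100 bp, 3 ratios of divergent to one-strand windows crossed 1: CAGCTG from 0.909 to 1.25, AGGTGGCG from 0.872 to 1.05 and CAGGTAG from 1.31 to 0.563. Peak numbers, which differ between libraries, limit precision.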
